A study of Mus musculus with 4 samples.

Results

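Sphingosine 1-phosphate (S1P) is a lipid signal, and the 10 genes described here make it, break it down, move it out of cells or carry it in blood. They were taken as a named group by role: Asah1, Sphk1, Sphk2, Spns2, Mfsd2b, Apom, Plpp3, Sgpp1, Sgpp2 and Sgpl1. Each was found on the array through the RefSeq accession of its probe, which names Plpp3 under its current symbol (formerly Ppap2b). Of the 10 genes, 8 gave enough signal to be tested, among 22931 features tested in all. The samples were hearts of male mice taken on day 5 after the left anterior descending (LAD) coronary artery had been tied off, a surgical model of myocardial infarction. In KO mice (VE-Cad-Cre-S1pr1 fl/fl) a Cre recombinase under the VE-cadherin promoter acts on floxed S1pr1, the gene of an S1P receptor, in endothelial cells. They were set against WT mice; whether WT mice carried the floxed allele or the Cre is not given in the sources used here. Every heart was infarcted, so no value below sets an infarcted heart against an uninjured one. There were 2 arrays of KO hearts (replicates 3 and 4) and 2 of WT hearts (replicates 1 and 3). No label states whether these are hearts of separate animals, and p-values then measure only the spread between the samples, which may be technical.

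Ceramide is split by ceramidases to sphingosine, and sphingosine kinases add a phosphate to make S1P. S1P then has several fates: phosphatases turn it back to sphingosine, the lyase cleaves it for good, and transporters release it to blood and lymph, where carriers such as apolipoprotein M hold it. Red blood cells, platelets and endothelium are known as its main sources in the circulation, and endothelial S1pr1 is the receptor through which it steadies vessel walls. The arrays measured RNA of the enzymes and transporters, not the lipid.

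Levels are log2 signals minus the 75th percentile of the same array, so a level of 0 lies at that percentile, and a difference is the KO mean less the WT mean of these log2 levels. Levels of different genes come from different probes and are not ranked against each other. S1pr1, the targeted gene, had levels of -2.69 and -2.30 on the KO arrays and 0.43 and 0.95 on the WT arrays, a difference of -3.19 (SE 0.38) with an unadjusted p of 0.000714 and an adjusted p of 0.740 in limma. WT replicate 1 stood apart from the other 3 arrays. Its share of probes well above background was 54.3%, against 69.4% to 73.4% on the others, and the mean of 11 ventricular cardiomyocyte markers was 2.27 on it, against 6.17 and 6.99 in KO and 6.37 on WT replicate 3. KO replicate 4 stood apart in another list: 6 proliferation markers averaged 0.16 and -4.02 in KO and 1.48 and 0.03 in WT, with 6 of 6 lower in KO. The means of 3 B cell markers were -0.42 and -5.21 in KO and -0.64 and -3.41 in WT. That list was low on both KO replicate 4 and WT replicate 3. All 11 cardiomyocyte markers, which define the labelled tissue, were measured on enough arrays to be tested. The 4 arrays lay on 1 slide, with KO at positions 2 and 1 and WT at positions 4 and 3, so position and genotype cannot be told apart. In RNA from a whole heart, fewer cells of a type and less RNA per cell cannot be told apart either.

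For these genes, differences between KO and WT hearts were small beside the spread of the arrays. With a limit of 0.05 on the adjusted p, limma called 0 of the 8 genes and 0% of all features, and with the same limit on the unadjusted p it called 0 of the 8 genes and 2.76% of all features. With 1 array left out, that share became 0.728% (KO replicate 4), 1.65% (WT replicate 1), 5.73% (KO replicate 3) or 18.5% (WT replicate 3), and in the last case 1 of the 8 genes, Sphk1, was called. The mean was lower in KO for 6 of the 8 genes (45.2% of all features) and higher for 2 (54.8% of all features). Their median difference was -0.25, beside a median of 0.07 over all features. Leaving out WT replicate 1 gave a median of -0.09 for the 8 genes, leaving out KO replicate 3 gave -0.16 and leaving out WT replicate 3 gave -0.40. The largest differences were those of Sphk1 (-0.87) and Sgpl1 (-0.83), a kinase that makes S1P and the lyase that destroys it, and of Plpp3 (0.63), a phosphatase of the cell surface. For each of the 8 genes the difference between genotypes was smaller than the gap between the 2 WT arrays, which ran from 0.07 to 1.41; this held for 68% of all features. The 95% intervals reached 0.82 to 1.66 either side of the estimate. A difference smaller than its own half-width could not pass the limit on the unadjusted p with this number of arrays. The limit on the adjusted p was stricter, and even S1pr1, with a difference of -3.19, did not pass it. An exact permutation test of 2 against 2 arrays cannot give a two-sided p below 0.333. Any feature with both KO arrays on the same side of both WT arrays reaches that value. Among the 8 genes these were Sphk1 and Sphk2, both lower in KO, beside 16.1% of all features lower and 18.3% higher.

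**Figure D1:**
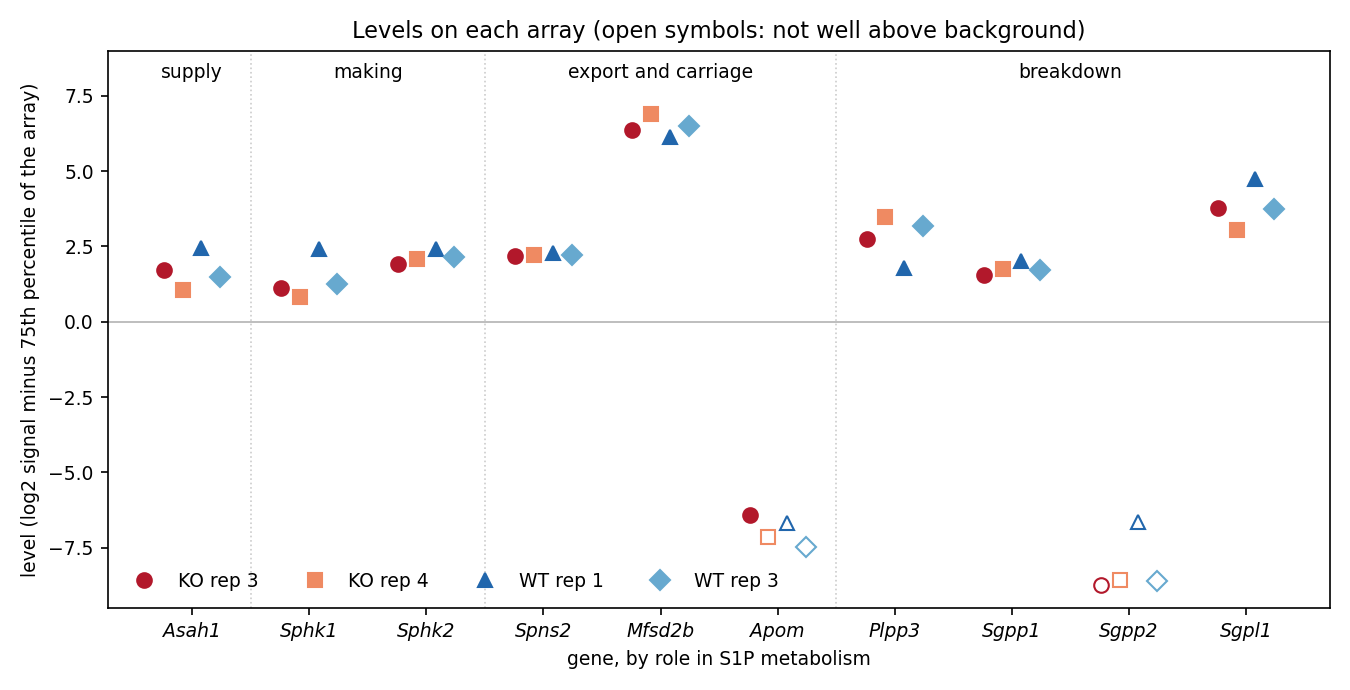
Levels of the 10 genes on each array, grouped by role, as log2 signal minus the 75th percentile of the array (vertical axis); each symbol is 1 array and open symbols were not well above background. Sphk1 and Sphk2 have both KO symbols below both WT symbols, Spns2 lies between 2.19 and 2.28 on all 4 arrays, and Apom and Sgpp2 lie at the bottom of the range.

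The start regions of Sphk1, Sgpl1 and Plpp3 are shown because these 3 genes had the largest differences in either direction. They are RefSeq windows of build GRCm38.p6, from 250 bases before to 50 after the annotated start, read 5′ to 3′ on the gene's strand. Sphk1 has 5 such windows and the outermost is shown, at chr11:116530850-116531149 on the plus strand. The Sgpl1 window is chr10:61147635-61147934 on the minus strand and that of Plpp3 chr4:105157097-105157396 on the plus strand. Capitals mark every match, on either strand, to one of 5 motifs: the GC box, spelled GGGCGG; the CCAAT box, spelled as its name; the AP-1 element, spelled TGACTCA; the TATA box, spelled TATAAA; and a GATA element, spelled AGATAA. No matches overlapped.
Sphk1: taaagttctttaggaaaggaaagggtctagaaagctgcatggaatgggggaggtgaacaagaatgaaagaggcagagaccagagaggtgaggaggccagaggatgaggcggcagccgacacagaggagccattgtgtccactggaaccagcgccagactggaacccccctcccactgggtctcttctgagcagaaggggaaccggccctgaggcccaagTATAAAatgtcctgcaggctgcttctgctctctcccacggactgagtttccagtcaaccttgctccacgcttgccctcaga
Sgpl1: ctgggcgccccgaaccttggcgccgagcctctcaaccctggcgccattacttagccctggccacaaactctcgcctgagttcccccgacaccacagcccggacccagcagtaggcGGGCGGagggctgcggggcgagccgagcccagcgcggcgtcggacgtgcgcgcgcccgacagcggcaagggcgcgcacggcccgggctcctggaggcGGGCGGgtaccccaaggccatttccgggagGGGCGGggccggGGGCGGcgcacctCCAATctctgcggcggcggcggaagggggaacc
Plpp3: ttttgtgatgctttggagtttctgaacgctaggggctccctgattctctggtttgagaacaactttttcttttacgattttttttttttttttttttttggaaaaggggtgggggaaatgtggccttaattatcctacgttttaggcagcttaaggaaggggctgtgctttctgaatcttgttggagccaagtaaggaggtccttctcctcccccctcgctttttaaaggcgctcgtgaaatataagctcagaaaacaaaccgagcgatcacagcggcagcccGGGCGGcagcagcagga

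The Sphk1 window held 1 TATA box and no match to the other 4 motifs, with 56% G or C. The Sgpl1 window held 4 GC boxes and 1 CCAAT box, with 75.3% G or C. The Plpp3 window held 1 GC box, with 46% G or C. Among 32851 windows in the table, the GC box was found in 35.7%, the CCAAT box in 37.4%, the TATA box in 13.6%, the GATA element in 11.2% and the AP-1 element in 5.2%, and the median content of G or C was 52.7%. A window was found for 9 of the 10 genes, and the GATA element matched only in that of Spns2 among these 9. These matches describe letters and say nothing about which factor is bound.

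Asah1, the lysosomal acid ceramidase that releases sphingosine from ceramide, had levels of 1.73 and 1.05 on the KO arrays and 2.46 and 1.49 on the WT arrays. The genotypes overlapped, since KO replicate 3 lay above WT replicate 3. The difference was -0.59 (SE 0.50, 95% interval -1.94 to 0.77; limma, adjusted p = 0.740). With 1 array left out it was -0.10 without WT replicate 1, -0.24 without KO replicate 4, -0.93 without KO replicate 3 and -1.07 without WT replicate 3. Asah1 has 2 probes on the array, and they moved together: the brighter was above the dimmer by 1.44 and 1.45 on the KO arrays and by 1.51 and 1.48 on the WT arrays.

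Of the kinases that make S1P, Sphk1 had levels of 1.11 and 0.82 in KO and 2.41 and 1.26 in WT (KO 0.97 ± 0.21, WT 1.84 ± 0.81; SD, n = 2 each). Both KO arrays lay below both WT arrays, but WT replicate 3 was much closer to the KO arrays than to WT replicate 1. The difference was -0.87 (SE 0.50, 95% interval -2.21 to 0.48), with an unadjusted p of 0.152 and an adjusted p of 0.740 in limma. A second Sphk1 probe, assigned to another transcript record, gave -2.35 and -2.67 in KO and -1.30 and -2.31 in WT. It held the same order of arrays, and its own difference was -0.70. The Sphk1 difference was -0.30 with WT replicate 1 left out and -1.44 with WT replicate 3 left out.

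Sphk2, the kinase isoform found largely in the nucleus and mitochondria, varied less. Its levels were 1.92 and 2.09 in KO and 2.43 and 2.14 in WT. The KO arrays were again both below the WT arrays. The difference was -0.28 (SE 0.32, 95% interval -1.15 to 0.58; limma, adjusted p = 0.771), which became -0.14 without WT replicate 1 and -0.43 without WT replicate 3. Sphk1 and Sphk2 were thus 2 of 8 genes with KO entirely below WT, beside 16.1% of all features, and 0 of 8 genes had KO entirely above WT, beside 18.3% of all features. Within an array, the level of Sphk1 minus that of Sphk2 was -0.80 and -1.27 in KO and -0.02 and -0.88 in WT, so the value on WT replicate 3 lay between those of the KO arrays. These come from different probes and do not say which kinase is more abundant.

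Spns2 encodes the transporter through which endothelial cells release S1P, and it was the steadiest of the genes. Its levels were 2.19 and 2.22 in KO and 2.28 and 2.21 in WT. The genotypes overlapped. The difference was -0.04 (SE 0.30, 95% interval -0.86 to 0.77; limma, adjusted p = 0.962), and leaving out any single array moved it no further than from -0.08 to -0.01. The mean of 10 endothelial markers was 1.40 and 1.24 in KO and 0.73 and 1.06 in WT, with a higher KO mean for all 10 markers and 0 called. Among them Cdh5, the adhesion gene whose promoter drives the Cre, had levels of 4.14 and 3.77 in KO and 3.62 and 3.70 in WT. Pecam1, another endothelial adhesion gene, had levels of 0.06 and -0.13 in KO and -0.43 and -0.29 in WT. The endothelial mean thus ran over a wider range than Spns2 on the same arrays, and the part of endothelial content in the Spns2 value was not tested.

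Mfsd2b, the S1P exporter of red blood cells and platelets, has 2 probes. The brighter had levels of 6.37 and 6.88 in KO and 6.14 and 6.51 in WT, while the other was not well above background on any array. The brighter lay above the other by 13.66 and 13.09 on the KO arrays and by 12.77 and 13.1 on the WT arrays. Which of the 2 probes reports the transcript cannot be told from the data used here. The values of Mfsd2b below therefore rest on 1 probe that no second probe checks, and they may not report Mfsd2b. The same holds wherever Mfsd2b is counted among the 8 genes. Before scaling, the bright probe read 78120 and 72890 in KO and 78200 and 77980 in WT, and it ranked 157 among 39429 probes by mean signal. Its unscaled range over the arrays was 0.10 on the log2 scale, against a median of 0.48 for the 200 brightest probes and 1.15 for the tested features. The 75th percentile itself ranged over 0.85, which is more than the unscaled range of this probe. The scaled order of the arrays is the reverse of the unscaled one at its ends: KO replicate 4 was highest and WT replicate 1 lowest after scaling, and before it WT replicate 1 was highest and KO replicate 4 lowest. The difference was 0.31 (SE 0.37, 95% interval -0.69 to 1.30; limma, adjusted p = 0.782), and the genotypes overlapped. With quantile normalization, or in the deposited values, it was 0.07. With 1 array left out it was 0.05 without KO replicate 4, 0.12 without WT replicate 1, 0.49 without WT replicate 3 and 0.56 without KO replicate 3. For the cells known to use Mfsd2b the marker means were lower in KO, with 0 markers called. The mean of 8 erythroid markers was 0.34 and 0.46 in KO and 1.83 and 0.73 in WT, with 7 of the 8 lower in KO. That of 7 platelet markers was -3.65 and -3.01 in KO and -1.06 and -2.86 in WT, with 6 of the 7 lower in KO. Their part in the Mfsd2b value was not tested. Epb42, a gene of the red cell membrane skeleton, was not well above background on enough arrays to be tested.

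Apom, the apolipoprotein of high-density lipoprotein that carries S1P, was near background. Its single probe read -6.40 and -7.16 in KO and -6.67 and -7.48 in WT, and was well above background only on KO replicate 3. It was therefore not tested, and no fold is given. Apom is made mainly by liver and kidney. Of the 7 hepatocyte markers, Alb, Apoa1 and Fgb were not well above background on enough arrays, and 4 could be tested. Of these, Apoa2 had levels of 2.32 and 3.07 in KO and 1.78 and 2.89 in WT. KO and WT means were -5.40 and -5.43 for Apoh, -3.93 and -5.21 for Serpina1a and -5.79 and -5.80 for Ttr. Of the 4 kidney tubule markers, Umod and Slc12a1 were not well above background on enough arrays, while Lrp2 and Slc34a1 were tested. The part of liver or kidney RNA in the Apom signal was not tested.

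Among the tested genes that remove S1P, Plpp3 had the higher mean in KO, while Sgpp1 and Sgpl1 had the lower. Plpp3 encodes a lipid phosphate phosphatase that acts on S1P and related lipids outside the cell. Its levels were 2.75 and 3.49 in KO and 1.78 and 3.19 in WT, so WT replicate 3 lay between the KO arrays and WT replicate 1 lay below all of them. The difference was 0.63 (SE 0.62, 95% interval -1.03 to 2.29; limma, adjusted p = 0.747). Without WT replicate 1 it was -0.08, so the sign rests on that array; it was 0.26 without KO replicate 4, 0.998 without KO replicate 3 and 1.33 without WT replicate 3. Means of several marker lists were also lowest on WT replicate 1. The 6 pericyte markers averaged 1.85 and 1.88 in KO and 0.02 and 1.58 in WT. Of these, Pdgfrb was highest on WT replicate 1 and Cspg4 was lowest on KO replicate 4. The endothelial, lymphatic endothelial and hepatocyte means were lowest on WT replicate 1 as well, and the cardiomyocyte list is given above. Their part in the Plpp3 value was not tested.

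Sgpp1, a phosphatase of the endoplasmic reticulum that returns S1P to sphingosine, had levels of 1.56 and 1.75 in KO and 2.03 and 1.72 in WT. The genotypes overlapped, and the difference was -0.22 (SE 0.33, 95% interval -1.09 to 0.66; limma, adjusted p = 0.813). Leaving out WT replicate 1 changed it to -0.06, leaving out KO replicate 3 to -0.12 and leaving out WT replicate 3 to -0.37. Sgpp2, its paralog, was not well above background on any of the 4 arrays. It read -8.74 and -8.57 in KO and -6.67 and -8.60 in WT, and its value was highest on WT replicate 1. The lowest level that counted as well above background was also highest on that array (-4.39, against -7.08 and -6.50 in KO and -6.50 on WT replicate 3). It was not tested.

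Sgpl1, the lyase that cleaves S1P irreversibly, had levels of 3.77 and 3.06 in KO and 4.74 and 3.76 in WT. KO replicate 3 and WT replicate 3 were nearly equal, 0.02 apart, and the outer arrays lay on either side. The difference was -0.83 (SE 0.51, 95% interval -2.21 to 0.54; limma, adjusted p = 0.740), and leaving out WT replicate 1 gave -0.34, leaving out KO replicate 4 gave -0.48 and leaving out WT replicate 3 gave -1.33. The mean of 11 macrophage markers had the same outer arrays, at 2.18 and 0.94 in KO and 3.24 and 2.38 in WT, with 11 of 11 lower in KO and 0 called. The proliferation and smooth muscle means were also highest on WT replicate 1 and lowest on KO replicate 4. The part of these cell types in the Sgpl1 value, and in those of Asah1 and Sphk1 with the same outer arrays, was not tested.

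**Figure D2:**
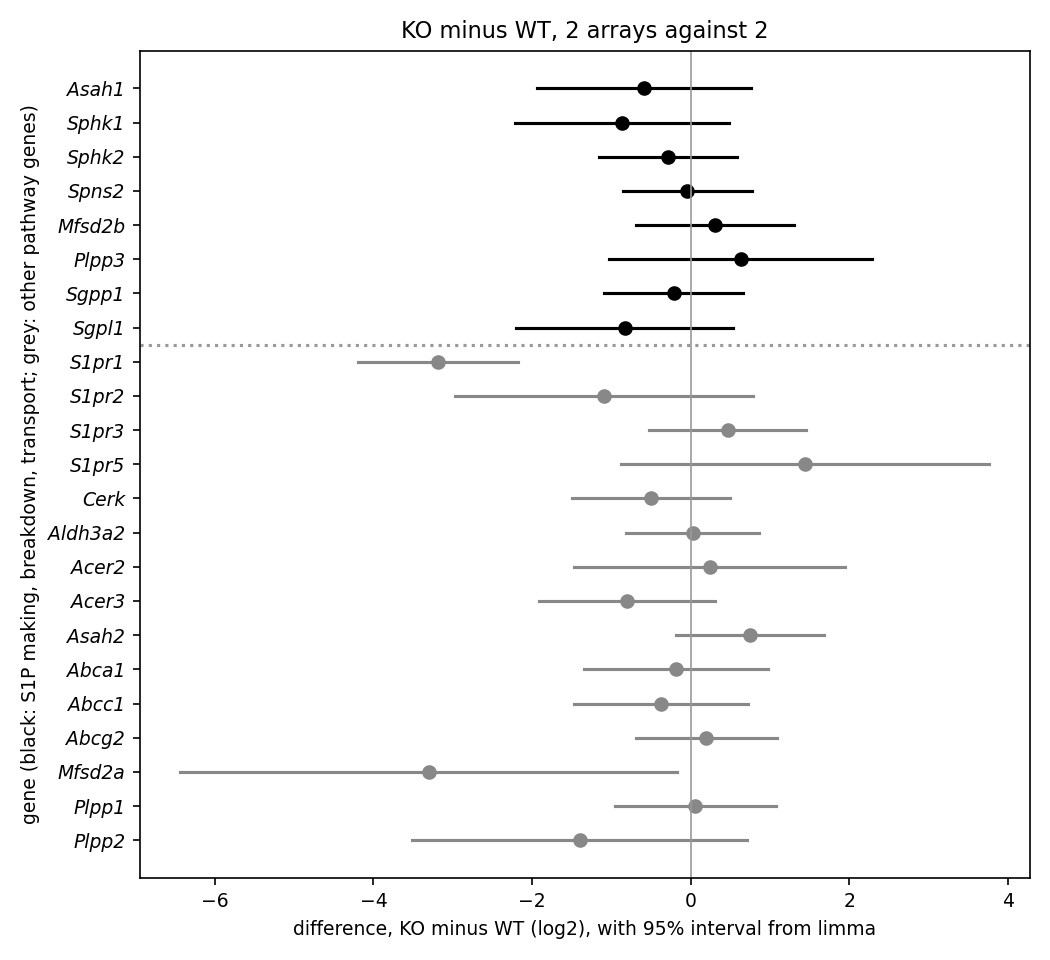
Difference KO minus WT (log2, horizontal axis) for the 8 tested genes in black and 15 other genes of the pathway in grey; points are limma estimates and bars their 95% intervals, 2 arrays against 2. All 8 black bars cross 0, from -2.21 at the lowest to 2.29 at the highest, while those of S1pr1 and Mfsd2a lie below 0 before correction.

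By their order over the arrays, read after the values were seen, the 8 genes made 3 groups, described by the root mean square gap between levels that were each centred on their own mean over the 4 arrays. Asah1, Sphk1 and Sgpl1 were highest on WT replicate 1 and lowest on KO replicate 4, with gaps of 0.12 between Asah1 and Sgpl1, 0.16 between Sgpl1 and Sphk1 and 0.21 between Asah1 and Sphk1. Within an array, the level of Asah1 minus that of Sgpl1 was -2.04 and -2.01 in KO and -2.28 and -2.27 in WT. That spacing was steady within each genotype, and it was picked out after the values were seen. Sphk2 and Sgpp1, a kinase and a phosphatase with opposite reactions, had a gap of 0.03, the smallest of any pair among the 8. Spns2 was the next nearest to both, at gaps of 0.13 to Sgpp1 and 0.15 to Sphk2. Those gaps were larger than the SD of Spns2 over the arrays (0.04), so its place beside Sphk2 and Sgpp1 rests on order alone. All 3 were highest on WT replicate 1 and lowest on KO replicate 3. Plpp3 was lowest on WT replicate 1 and highest on KO replicate 4, and so was Mfsd2b after scaling, though not before it. WT replicate 1 was thus at one end for all 8 genes, as for 80.7% of all features.

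Each gene was also set beside the means of 15 marker lists of at least 3 tested genes by the same measure. Asah1 and Sgpl1 were nearest to the smooth muscle mean, at gaps of 0.13 and 0.18, beside SDs over the 4 arrays of 0.59 for Asah1 and 0.69 for Sgpl1. That mean was 1.01 and 0.66 in KO and 1.85 and 1.01 in WT, with 3 of its 6 genes lower and 3 higher in KO. Sphk1 (SD 0.69) was about as near to the erythroid mean (0.14) as to the smooth muscle mean (0.17). Plpp3 (SD 0.74) had gaps of 0.27 to the mean of the 4 tested hepatocyte markers and 0.34 to the pericyte mean. The defining hepatocyte markers Alb, Apoa1 and Fgb are missing from the first. For Sphk2, Spns2 and Sgpp1 the smallest gap to any list (0.31, 0.28 and 0.33) was larger than the gene's own SD over the arrays (0.21, 0.04 and 0.19), so no list is named for them. None is named for Mfsd2b, whose order of arrays changed with the scaling. Of 15952 genes compared, Cdk20, Nectin1 and Cd300a came nearest to Sphk1, at gaps of 0.02, 0.03 and 0.03. With 4 arrays and this many genes, small gaps arise for some genes whatever their function, so no tie to Sphk1 is read from them. Cdk20 had levels of -0.55 and -0.88 in KO and 0.75 and -0.42 in WT.

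**Figure D3:**
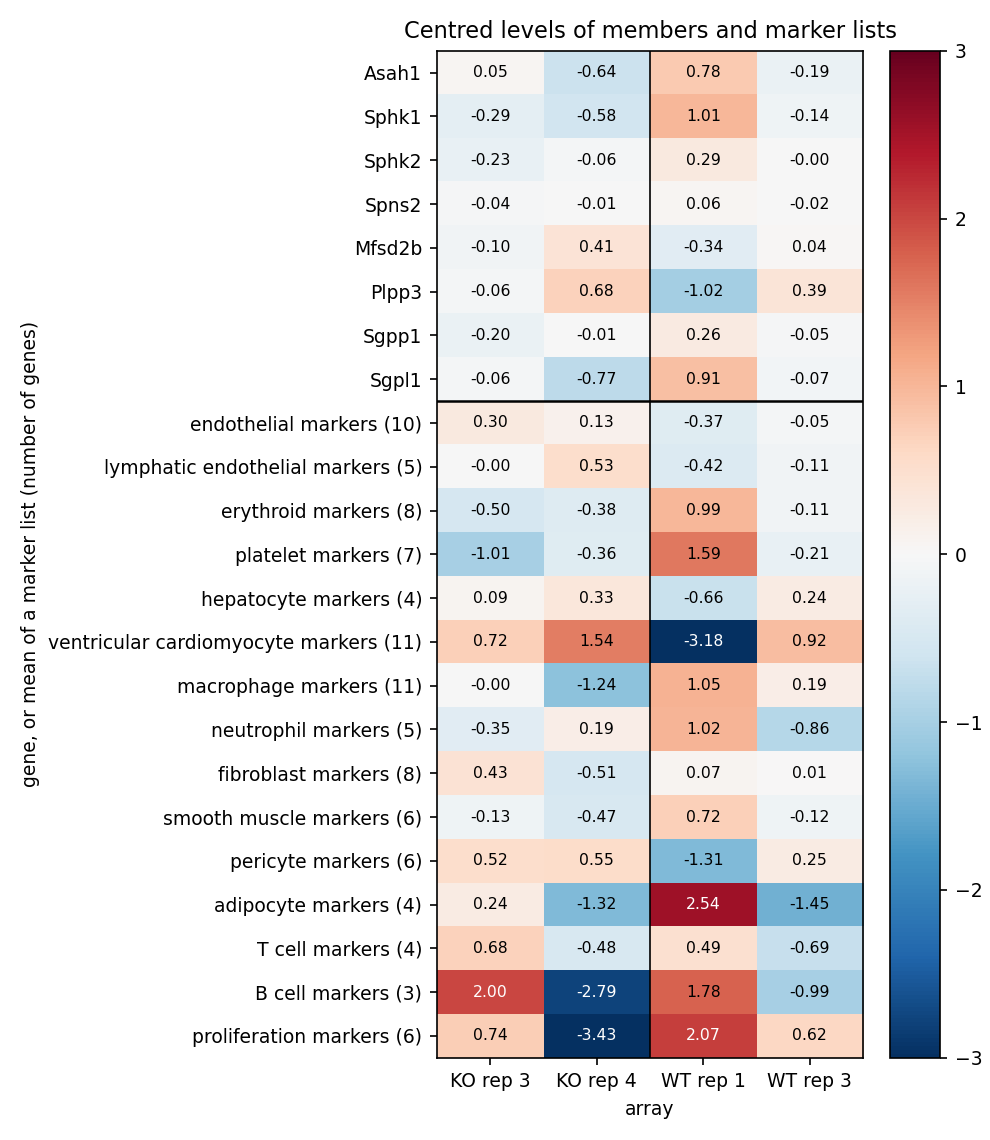
Levels of the 8 genes and means of 15 marker lists on each array, each row minus its own mean over the 4 arrays (log2; red above, blue below, the number printed in each cell, colours ending at -3 and 3). The rows of Asah1, Sphk1 and Sgpl1 are red on WT replicate 1 and blue on KO replicate 4, Plpp3 is the reverse, and Spns2 is near 0 throughout.

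The other genes of the pathway gave a mixed picture. Of 17 such genes 15 were tested, with S1pr4 and Acer1 not well above background on enough arrays. In limma 8 were lower and 7 higher in KO, 0 passed the adjusted threshold, and their median difference was -0.18 with S1pr1 and -0.08 without it. Among the receptors S1pr2 differed by -1.09, S1pr3 by 0.47 and S1pr5 by 1.44, the last well above background on only 1 WT array. Mfsd2a, a relative of Mfsd2b known for carrying lysophospholipids into the brain, had levels of -3.57 and -6.25 in KO and -0.61 and -2.59 in WT. Its difference of -3.30 (SE 1.17) had an unadjusted p of 0.0426 and an adjusted p of 0.740 in limma. Asah2, the neutral ceramidase, had levels of -1.27 and -1.19 in KO and -2.22 and -1.73 in WT, a difference of 0.75 (SE 0.35). Acer3, an alkaline ceramidase, had -0.82 and -1.33 in KO and 0.05 and -0.60 in WT, a difference of -0.80 (SE 0.41). For Asah2 both KO arrays lay above WT and for Acer3 both lay below, so the ceramidases differed in sign among themselves, and none of these differences passed the test.

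The arrays numbered 3 show how far the values rest on the other pair. KO replicate 3 minus WT replicate 3 was 0.24 for Asah1, -0.15 for Sphk1, -0.23 for Sphk2 and -0.02 for Spns2. It was -0.14 for Mfsd2b, -0.45 for Plpp3, -0.16 for Sgpp1 and 0.02 for Sgpl1. Against the means over all arrays, the sign was opposite for Asah1, Mfsd2b, Plpp3 and Sgpl1. For 7 of the 8 genes this gap was smaller than the gap between arrays of either genotype, as for 61.6% of all features. For S1pr1 the same pair differed by -3.65.

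**Figure D4:**
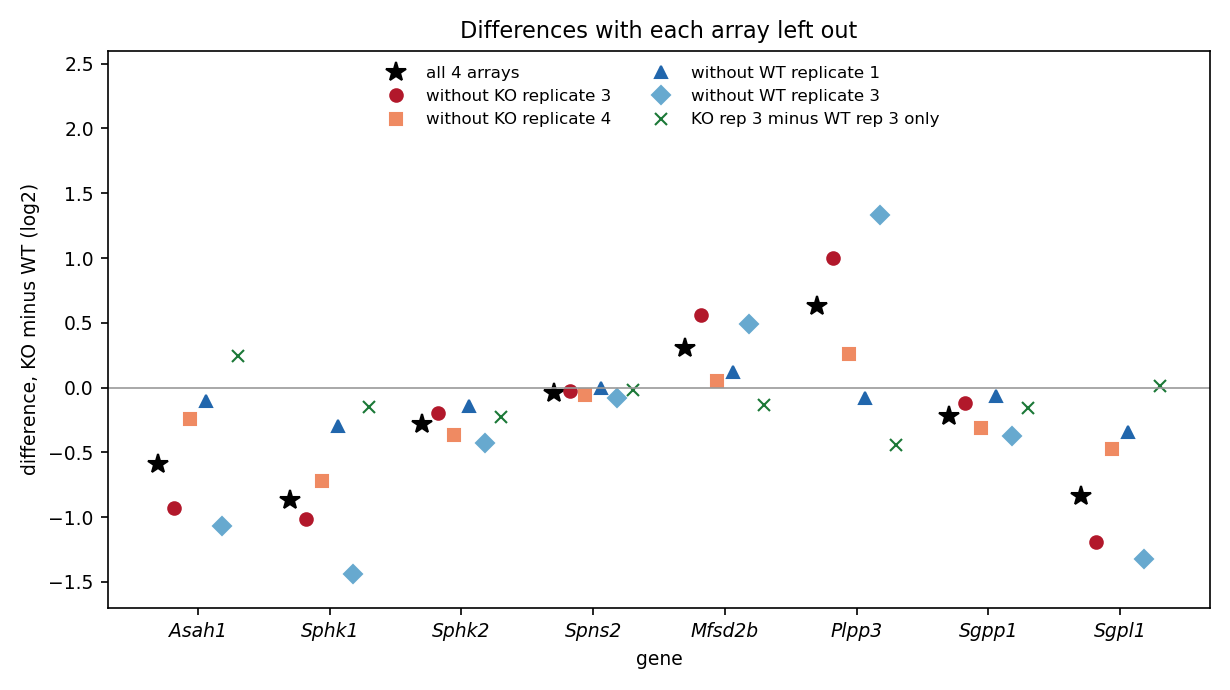
Difference KO minus WT (log2, vertical axis) for the 8 tested genes with all 4 arrays (star), with each array left out in turn, and for KO replicate 3 minus WT replicate 3 alone (cross, no test). Points of Sphk2 and Spns2 lie close together, while those of Plpp3 run from -0.45 to 1.33 and those of Sphk1 from -1.44 to -0.15.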

How the data were processed

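Total RNA of each heart was labelled with Cy3 and hybridised to a 1-colour Agilent array. The scanner intensity is the processed signal, background-subtracted within each array by Feature Extraction 11.0.1.1 per the file headers, while version 9.1 of it stands in the submitters' processing notes. Spot flags for background, saturation and outliers are used as the authors deposited them, as other values of 0 or 1 per spot. The deposited value table holds log2 values with the same median (6.106) in all 4 columns, so the arrays had been normalized to each other, by what method is not given in the sources used here. Its scale followed log2 scanner signals (slopes 0.997 to 1.01), and it served as an alternative. Its differences nearly equalled those from quantile normalization: -0.5916 and -0.5915 for Asah1, and -0.8678 and -0.8676 for Sphk1. The deposited values and quantile normalization are therefore not separate checks. No spot was saturated (0 on each array).

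Control and outlier spots were left out, spots of a probe were averaged as log2 values, and the 75th percentile of each array's probes was subtracted. A probe entered the tests if 2 or more of the 4 arrays had it well above background, and the probe of highest mean stood for a gene. The GRCm38.p6 table gave a symbol to 27234 of the 39429 probes by RefSeq accession, and 12195 kept the array's identifier. The arrays' grid names another build, so coordinates are given for the RefSeq start windows only. The array files hold no gene name column, so accessions alone gave names.

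Genotypes were compared two-sided in R 4.3.3 with limma 3.58.1 (lmFit, then eBayes), and p-values of all 22931 features were adjusted together by Benjamini-Hochberg, called under 0.05. The fit was tested on simulated data with independent noise of the same spread on every array. No simulated array stood apart as WT replicate 1 does, so that test cannot show how the fit behaves with such an array. The members, the other lists and the named genes (all members, S1pr1, the receptors, the 3 other pathway genes of smallest p, and the genes nearest in pattern to the member of smallest p) were chosen with earlier results of these data known. Protein sequences planned for the paralogs were not used here. Alternatives were other scalings, filters, background correction, deposited values, probe means, eBayes options and each array left out. The number of arrays limits the precision.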

Additional observations from a re-analysis of the deposited data

How the results depend on the processing

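With all 4 arrays, alternatives of scaling, filter, floor, probe rule and variance option were run. Every one kept the sign of the difference for the 8 genes and for S1pr1. None brought an adjusted p under 0.05 for any of these genes. Each alternative still scaled the arrays to each other. None of them therefore tests the sign of Mfsd2b, whose order of arrays changed with the scaling. One of them, normexp (offset 50) applied to median signals, was chosen after seeing the data; normexp on mean signals was not run, since the files used here hold median signals. Over them the difference ran from -0.98 to -0.73 for Sphk1, from -0.94 to -0.83 for Sgpl1, from -0.70 to -0.56 for Asah1, from 0.52 to 0.63 for Plpp3 and from 0.07 to 0.36 for Mfsd2b. With 1 array left out in turn, where the lone array of a genotype is assumed to vary like the others, Plpp3 ran from -0.0774 (without WT replicate 1, a reversal) to 1.33, and no other sign turned. The pair numbered 3 alone turned 4 signs, as given above. Median scaling moved the median of all features to -0.04, against 0.07, and that of the 8 genes to -0.36, against -0.25. The split of features at an unadjusted p under 0.05 was 310 lower and 323 higher in KO, but 405 and 251 with median scaling, 650 and 177 with no filter on dim probes, 279 and 139 with the filter on all 4 arrays, and 398 and 273 with normexp. The number of features past the threshold was 0 under every alternative. At an unadjusted p under 0.05 it was 633, 418 when only probes well above background on all 4 arrays were tested (fewer features tested), and from 167 (without KO replicate 4) to 4251 (without WT replicate 3) with 1 array left out; the cause was not tested. The number of the 8 genes at an unadjusted p under 0.05 was from 0 to 1 with 1 array left out, the 1 being Sphk1 without WT replicate 3 (limma, adjusted p = 0.245, within a range of 0.245 to 1 over its alternatives). No paired analysis was possible because the genotypes share only 1 replicate number, and no label ties its samples to each other. Groups of 2 arrays are too small for a test of outlying samples. Signal over background limits Apom, Sgpp2 and the second Mfsd2b probe.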
